A study of Homo sapiens with 6 samples.

Results

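The genes of cell-cell adhesion described here encode cadherins, the catenins that join them to the cytoskeleton, the parts of the desmosome, the nectins and EPCAM. They were chosen by gene symbol and not by a cut on their values, but with earlier results of these data known. All CDH, PCDH, DSG, DSC and PKP rows of the count table were taken, together with the catenins, JUP, DSP, EVPL, the PVRL genes (the older symbols of the nectins) and EPCAM. This gave 103 of the 31122 rows, of which 63 had enough counts to be tested and 40 had not. CTNNA2, CTNND2, PPL and PVRL3 were not analysed here.

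Polyadenylated RNA was sequenced from 6 MDA-MB-468 cultures, a breast cancer line of triple-negative, basal-like and epithelial type. The parental group held 3 wells of 1 plate with unedited cells. Per the labels, the GPR52 KO group held 3 populations edited with CRISPR-Cas9 and the guide sgRNA1 that targets the gene of the orphan receptor GPR52, a G protein-coupled receptor. KO-labelled 1, 2 and 3 stand for the populations titled 11, 12 and OG, and whether each is a clone or a pool, and what relates them, is not stated. No cells carrying a control guide were analysed here, so editing, selection and time in culture cannot be told apart from the label.

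Cadherins bind the same kind of molecule on the neighbouring cell through calcium-dependent extracellular repeats. At adherens junctions the tail of E-cadherin or P-cadherin holds beta-catenin or plakoglobin, and alpha-catenin links that complex to actin, while nectins assist in forming the contact. At desmosomes, desmogleins and desmocollins bind plakoglobin and plakophilins, and desmoplakin ties these to keratin filaments. Clustered protocadherins, best known from neurons, are made from arrays of alternative first exons, each with a promoter of its own, and the PCDHA and PCDHG arrays splice these to shared constant exons.

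Library totals ran from 25637794 to 31692454 counts, which made 1 count worth 0.0316 to 0.0390 CPM (counts scaled to a common library size). The targeted gene went against the label, since GPR52 had 9, 1 and 0 counts in the parental-labelled libraries and 645, 694 and 724 in the KO-labelled ones. Directions below are therefore those of libraries carrying the KO label, whatever the state of GPR52 in them. Of 7 markers of epithelial identity in this line, all were tested. Their summed level was 11548 to 11775 CPM in parental-labelled and 10471 to 14858 CPM in KO-labelled libraries. The largest part was EGFR, at 4560, 4927 and 8307 CPM in KO-labelled 1, 2 and 3. The markers did not move together. At an adjusted p under 0.05 in edgeR, EPCAM and KRT5 were called higher, CDH1 and KRT18 lower, and 3 were not called. Markers of other cell types were lower in sum than these, with 0.238 to 0.330 CPM against 0.0377 to 0.141 CPM for the 4 blood markers. The 7 fibroblast markers with a row summed to 12.6 to 15.5 against 23.9 to 28.0 CPM, nearly all from COL1A1 and COL3A1, with the other 5 at 0.243 CPM or less in group mean. These 2 went opposite ways, COL1A1 from 7.31 to 25.5 CPM and COL3A1 from 6.49 to 0.0361 CPM in group mean. The 4 endothelial markers with a row, CDH5 among them, summed to 3.86 to 4.29 against 3.29 to 7.46 CPM. For the 3 neural markers with a row the sums were 19.7 to 21.9 against 33.9 to 39.0 CPM, with NCAM1 called higher and MAP2 not called. PMEL, the only melanocyte marker with a row, was at 1.86 to 1.95 against 2.45 to 2.97 CPM and was called higher. In bulk RNA, fewer expressing cells and less RNA per cell cannot be told apart. The p-values measure the spread between these wells and populations, which may be technical.

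Among the tested members, those at a mean of at least 10 CPM, which include most genes of the main epithelial junctions, differed by less than 2-fold, and every called difference of 2-fold or more was in a member below that level. At an adjusted p under 0.05 in edgeR's quasi-likelihood test, 27 members were higher in KO-labelled libraries, 10 lower and 26 not called. That is 37 of 63 (58.7%), beside 40.8% of all 17420 tested genes, of which 21% were called higher and 19.8% lower. Of the 63, 8 passed the filter on low counts only through the KO-labelled libraries and 2 only through the parental-labelled ones. The former were CDH26, PCDH8, PCDHA3, PCDHA12, PCDHAC1, PCDHAC2, PCDHGA1 and PCDHGB4, and the latter CDH16 and PCDH18. None of these 10 had a library of the other group over the cutoff, so their direction in counts was fixed, though not a call. CDH18 and PCDHA11, with 1 parental-labelled library over the cutoff, and PCDHGB8P, with 2, also needed the KO-labelled libraries to pass. PCDHB15, with 2 KO-labelled libraries over it, needed the parental-labelled ones. The share of members called is therefore a description. The median log2 fold change was 0.35 over the tested members and 0.01 over all tested genes. Over the 23 members with a mean of at least 10 CPM, 12 were called (52.2%), beside 45.9% of all genes at that level. Their log2 fold changes lay between -0.88 (PCDH7) and 0.80 (CDH24), so none reached 2-fold, which 5.84% of all genes at that level did with a call. Changes of at least 2-fold with a call were seen for 18 members, all below a mean of 10 CPM, and for 12.1% of all tested genes.

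**Figure D1:**
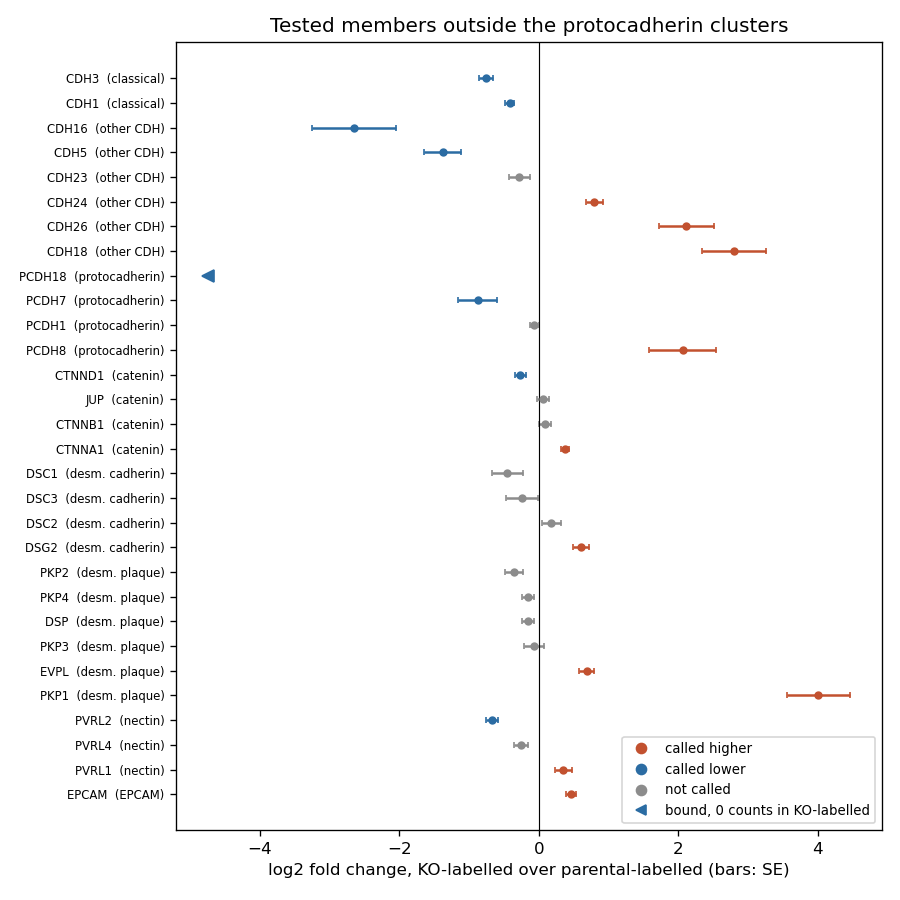
Log2 fold change (x axis) of each tested member outside the protocadherin clusters (y axis, grouped by role), KO-labelled over parental-labelled, with the SE as bars. Most catenin, desmosome and nectin genes lie within 1 unit of 0, PKP1 lies at 4.01, and PCDH18 is drawn at its bound because KO-labelled libraries held 0 counts.

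The 2 tested type I classical cadherins, E-cadherin (CDH1) and P-cadherin (CDH3), both fell. CDH1 was at 291, 281 and 265 CPM in the parental-labelled libraries and at 203, 221 and 203 CPM in the KO-labelled ones. All KO-labelled values lay below all parental-labelled ones, with a log2 fold change of -0.42 (SE 0.07, edgeR adjusted p = 0.00204). P-cadherin, which marks basal-type epithelium, was at 118, 115 and 119.6 CPM against 60.3, 70.0 and 78.1 CPM. Again the groups did not overlap, and the log2 fold change of CDH3 was -0.76 (SE 0.10, edgeR adjusted p = 6.1e-04). CDH1 and CDH3 are neighbours on chromosome 16, and the 20 nearest tested genes around them, members left out, had a median log2 fold change of 0.08, with 4 called higher and 2 lower. Neither fall reached the threshold when tested against a 1.5-fold change (glmTreat). A difference under 1.5-fold, as for CDH1 (1.34-fold) and also CTNNA1 (1.30-fold) and EPCAM (1.37-fold) below, cannot pass that test.

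N-cadherin (CDH2), a type I classical cadherin of mesenchymal and neural cells, was barely detected. It had 2, 5 and 3 counts in parental-labelled and 0, 1 and 0 counts in KO-labelled libraries, a ratio of 9.57 (95% counting interval 1.36 to 415) in favour of the parental label that covers counting error only. CDH4 and CDH15, the other type I classical members with a row, had at most 1 count in any library. In these libraries, E-cadherin and P-cadherin were thus the type I classical cadherins at a measurable level, under both labels.

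Of the catenins, alpha-catenin rose, CTNND1 fell, and beta-catenin and plakoglobin were not called. CTNNA1, which links the cadherin complex to actin, was at 142, 144 and 139 CPM against 184, 189 and 178 CPM, with no overlap and a log2 fold change of 0.38 (SE 0.06, edgeR adjusted p = 0.00181). CTNND1, the catenin that binds close to the membrane and holds cadherins at the cell surface, was at 593, 580.5 and 561 CPM against 518, 483 and 443 CPM. That is a log2 fold change of -0.26 (SE 0.07, edgeR adjusted p = 0.0221), which fell short without parental-labelled 1 (adjusted p = 0.0894) or 2 (0.0788), and in the limma test on FPKM (0.114).

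Beta-catenin (CTNNB1), shared between junctions and Wnt signalling, was at 425, 435 and 424 CPM against 439.9, 408 and 513 CPM. The KO-labelled values lay on both sides of the parental-labelled ones, with KO-labelled 3 highest, and the log2 fold change was 0.08 (SE 0.09, edgeR adjusted p = 0.479). Plakoglobin (JUP), the catenin found in both adherens junctions and desmosomes, was at 341, 360.4 and 403 CPM against 349, 383 and 418 CPM. Its groups overlapped, and its log2 fold change was 0.06 (SE 0.09, edgeR adjusted p = 0.649). The 20 tested genes nearest to JUP on chromosome 17 had a median log2 fold change of 0.69, with 12 called higher and 1 lower. CTNNA3 had 1 count in 1 library of each group.

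**Figure D2:**
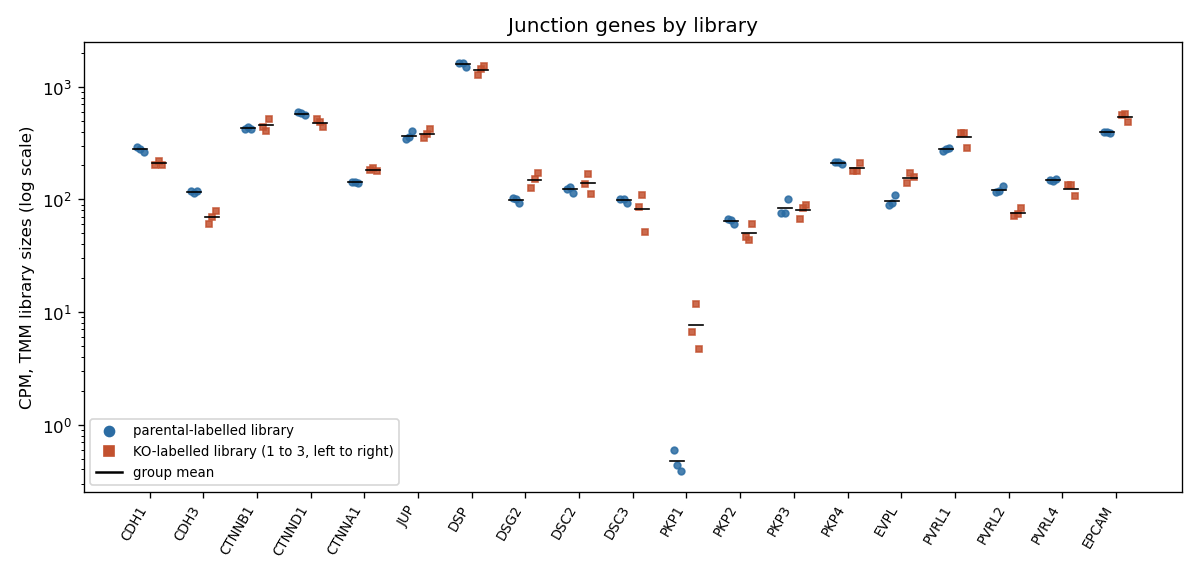
CPM per library (y axis, log scale) of 19 junction genes (x axis), with parental-labelled libraries as circles, KO-labelled 1 to 3 as squares from left to right, and group means as lines. CDH1, CDH3 and PVRL2 sit lower and CTNNA1, DSG2, EVPL and EPCAM higher in every KO-labelled library, PKP1 goes from 0.472 to 7.68 CPM in the mean, and DSC3 spreads from 51.8 to 110.1 CPM among the KO-labelled populations.

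In the desmosome, 3 of 10 tested genes rose and 7 were not called, beside 40.8% called over all tested genes, with a median log2 fold change of -0.11. The large change was in a single plaque gene present at a low level. Plakophilin 1 (PKP1), which strengthens desmosomes in stratified epithelium, was at 0.594, 0.437 and 0.386 CPM against 6.67, 11.7 and 4.71 CPM. Every KO-labelled library was above every parental-labelled one, KO-labelled 2 most of all, and the log2 fold change was 4.01 (SE 0.45, edgeR adjusted p = 3.2e-04). Around PKP1 on chromosome 1, the 20 nearest tested genes had a median of -0.36, with 8 called lower and 1 higher. Even so, PKP1 stayed the lowest of the plakophilins per transcript length. In the authors' FPKM values, PKP3 exceeded PKP1 by 436-, 466- and 840-fold in the parental-labelled libraries and by 33.5-, 23.5- and 62.6-fold in the KO-labelled ones.

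Among the desmosomal cadherins, desmoglein 2 (DSG2), the widely expressed desmoglein of simple epithelia, rose from 103, 101 and 92.0 CPM to 127, 151 and 171 CPM. The groups did not overlap, with a log2 fold change of 0.60 (SE 0.11, edgeR adjusted p = 0.00352). Desmocollin 2 (DSC2), its usual partner, was at 124, 130.04 and 115 CPM against 136, 169 and 112 CPM, and its log2 fold change of 0.18 (SE 0.14) was not called (edgeR adjusted p = 0.341). Desmocollin 3 (DSC3), more typical of basal layers, was at 100.02, 102 and 92.0 CPM against 85.2, 110.1 and 51.8 CPM. KO-labelled 3 was far below and KO-labelled 2 above the parental range, and the log2 fold change was -0.25 (SE 0.23, edgeR adjusted p = 0.421). Desmocollin 1, a gene of the upper epidermis, stayed between 0.857 and 1.52 CPM in all libraries.

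The desmosomal cadherin genes lie side by side on chromosome 18, and their 20 nearest tested neighbours had a median log2 fold change of -0.01, with 2 called in each direction. The ratio of DSG2 to DSC2 in the authors' FPKM was 0.724, 0.684 and 0.716 in parental-labelled and 0.807, 0.790 and 1.33 in KO-labelled libraries. For DSC2 over DSC3 it was 1.28, 1.42 and 1.21 against 1.58, 1.75 and 2.25. Both ratios were higher in each KO-labelled library than in any parental-labelled one, most of all in KO-labelled 3. Desmoglein 3, the desmoglein of basal keratinocytes, had 2, 2 and 1 counts against 2, 6 and 29, and desmoglein 1 had 1, 0 and 1 counts against 7, 9 and 0. Neither was tested. KO-labelled 3 held most counts of DSG3 and none of DSG1. DSG4 had at most 1 count per library.

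Desmoplakin (DSP), the keratin anchor and the desmosomal gene with the highest level per length, was at 1632, 1612 and 1489.7 CPM against 1285, 1433 and 1537 CPM. The groups overlapped through KO-labelled 3, and the log2 fold change was -0.15 (SE 0.08, edgeR adjusted p = 0.173). Plakophilin 2 was at 67.6, 65.3 and 60.7 CPM against 46.0, 44.0 and 61.0 CPM, and its log2 fold change of -0.36 (SE 0.13) narrowly missed the threshold (edgeR adjusted p = 0.0537). PKP2 was called with DESeq2 (adjusted p = 0.0370) and limma voom (adjusted p = 0.0450). Plakophilin 3 (PKP3) was at 76.5, 75.4 and 99.8 CPM against 67.5, 83.3 and 88.8 CPM, and PKP4, a plakophilin relative found at both junction types, at 217, 214 and 205 CPM against 179, 178 and 212 CPM. Neither PKP3 nor PKP4 was called. Without KO-labelled 3, DSP (-0.22), PKP2 (-0.52) and PKP4 (-0.25) were called lower and DSC2 (0.31) higher, with edgeR adjusted p of 0.0183, 2.2e-04, 0.00410 and 0.0191.

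Envoplakin (EVPL), a plakin of desmosomes and the cornified envelope, rose from 88.6, 92.5 and 109.9 CPM to 140.4, 171 and 157 CPM. The groups did not overlap and the log2 fold change was 0.69 (SE 0.11, edgeR adjusted p = 0.00154). Its 20 nearest tested neighbours on chromosome 17 had a median of 0.62, with 15 called higher and 0 lower. EPCAM, an epithelial adhesion molecule that is not a cadherin, rose from 393, 397 and 391 CPM to 564, 568 and 490.0 CPM. Its log2 fold change was 0.46 (SE 0.07, edgeR adjusted p = 0.00189), and its 20 neighbours on chromosome 2 had a median of 0.49, with 14 called higher and 3 lower. The differences of EVPL and EPCAM were thus close in size to the medians of the genes around them, a description with no test.

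**Figure D3:**
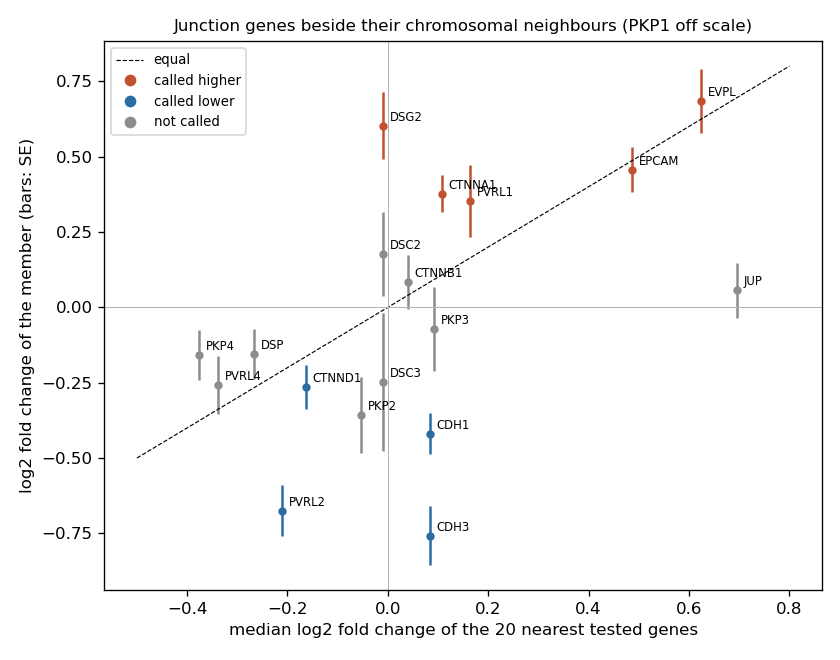
Log2 fold change of 18 junction genes (y axis, bars are the SE) against the median log2 fold change of their 20 nearest tested genes (x axis), with a dashed line where both are equal and PKP1 off the scale. EPCAM (0.46 beside 0.49) and EVPL (0.69 beside 0.62) lie close to the line, while CDH1, CDH3 and PVRL2 lie below it and DSG2 above it.

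The nectins, immunoglobulin-type adhesion molecules, did not move together. PVRL2, which encodes nectin-2, fell from 115, 119 and 131 CPM to 71.7, 73.9 and 83.4 CPM, without overlap and with a log2 fold change of -0.67 (SE 0.09, edgeR adjusted p = 5.9e-04). PVRL1, which encodes nectin-1, was at 270.2, 282 and 283 CPM against 391, 391 and 285 CPM. It was high in KO-labelled 1 and 2 and close to the parental values in KO-labelled 3. Its log2 fold change of 0.35 (SE 0.12) was called (edgeR adjusted p = 0.0471), but the call was lost without any parental-labelled library or without KO-labelled 1 or 2 (0.116 to 0.144), and with voom (0.0581). PVRL4, which encodes nectin-4, was at 148, 147 and 152 CPM against 134, 133 and 106 CPM and was not called (-0.26, SE 0.10, edgeR adjusted p = 0.0629), although it was without KO-labelled 1 (0.0469) or 3 (0.0333). In FPKM, PVRL1 was 0.896, 0.880 and 0.857 times PVRL2 in the parental-labelled libraries and 2.53, 2.22 and 1.496 times in the KO-labelled ones.

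Per transcript length, EPCAM stood highest of all members, with 296 ± 6.62 FPKM in parental-labelled and 419 ± 31.0 FPKM in KO-labelled libraries (SD, n = 3 each). In the parental group DSP (134 ± 5.79 FPKM, SD, n = 3), CTNNB1 (114 ± 1.72), JUP (99.8 ± 9.23) and CTNND1 (88.1 ± 2.80) followed. CDH1 (60.7 ± 3.84 FPKM), PVRL2 (59.1 ± 0.835) and CTNNA1 (57.1 ± 3.09) came next and did not differ beyond their spread. Desmosomal cadherins were lower, with DSC2 at 20.4 ± 0.961, DSC3 at 15.7 ± 0.708 and DSG2 at 14.4 ± 0.624 FPKM. In the KO-labelled group CTNNA1 stood at 81.6 ± 2.27 FPKM and CDH1 at 49.2 ± 3.24 FPKM, and DSG2 at 22.5 ± 3.39 FPKM beside DSC2 at 23.9 ± 4.92 FPKM. The ratio of CTNNB1 to CTNNA1 went from 2.01 ± 0.133 to 1.55 ± 0.163 and that of EPCAM to CDH1 from 4.88 ± 0.225 to 8.53 ± 0.395, both without overlap, while JUP over CTNNB1 was 0.872 in both groups.

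Further CDH genes were expressed at low levels and changed in both directions. CDH18, a cadherin of the nervous system, rose from 0.231, 0.397 and 0.225 CPM to 3.05, 1.41 and 1.46 CPM, a log2 fold change of 2.80 (SE 0.46, edgeR adjusted p = 0.00213). CDH26 was at 0.330, 0.0795 and 0.257 CPM against 0.942, 0.813 and 1.29 CPM, with 2.12 (SE 0.39, edgeR adjusted p = 0.00376). Both genes were higher in every KO-labelled library, and CDH26, which passed the filter only through the KO-labelled libraries, was not called by limma on log2(FPKM + 1) (adjusted p = 0.0553). CDH18 had 1 parental-labelled library over the cutoff of the filter and also needed the KO-labelled ones to pass. Kidney cadherin CDH16, which passed only through the parental-labelled libraries, fell from 0.528, 0.755 and 0.418 CPM to 0, 0.0707 and 0.179 CPM, with -2.66 (SE 0.60, edgeR adjusted p = 0.00859), and with -3.78 without KO-labelled 3. CDH5, the cadherin of endothelial cells, fell from 1.35, 1.63 and 1.22 CPM to 0.716, 0.424 and 0.464 CPM, with -1.38 (SE 0.26, edgeR adjusted p = 0.00430). The remaining tested genes were CDH24, named after its values were seen, which was called higher at 0.80 (edgeR adjusted p = 0.00175), and CDH23, which was not called. CDH10, CDH11, CDH13, CDH17 and CDH22 were not tested and had at most 7 counts in any library.

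Protocadherins outside the clusters gave the sharpest loss. PCDH18 had 34, 29 and 21 counts in parental-labelled libraries and 0 in all 3 KO-labelled ones. With 3 counts over the group taken as the floor, it was at least 26.8-fold lower, having passed only through the parental-labelled libraries. PCDH8, which passed only through the KO-labelled libraries, rose from 0.264, 0.278 and 0.257 CPM to 1.43, 0.495 and 1.46 CPM, and the log2 fold change was 2.06 (SE 0.48, edgeR adjusted p = 0.0107), but was not called by limma on log2(FPKM + 1) (0.0653). PCDH7, named after its values were seen, was at 37.6, 39.7 and 34.9 CPM against 19.1, 11.7 and 30.2 CPM. All 3 KO-labelled libraries were below the parental range by different amounts, and its call at -0.88 (SE 0.28, edgeR adjusted p = 0.0374) was lost without KO-labelled 1 or any parental-labelled library (0.0849 to 0.1003). PCDH1, the protocadherin with the highest FPKM in both groups, was at 169, 168 and 175 CPM against 151, 170 and 169 CPM and was not called. PCDH19, also named after the fact, had 4, 2 and 0 counts against 3, 6 and 167, so KO-labelled 3 held most of its counts.

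The clustered protocadherins on chromosome 5 made up 57 of the 103 members. Promoters are shown because all 5 tested PCDHA genes rose, beside 21% called higher over all tested genes. Of these 5, 4 passed the filter only through the KO-labelled libraries, so their direction was fixed by it. PCDHA11, with 1 parental-labelled library over its cutoff, also needed the KO-labelled ones to pass. The other 11 PCDHA genes, too low to test, had higher totals under the KO label. RefSeq promoter windows of GRCh38.p14, from 250 bases before to 50 after each start, were found for 72 of the 103 members. In each cluster the 10-base word present in most of its members' windows was looked for, on the strand of the gene. It was TGATGTCGCT in 8 of 13 PCDHA windows, GGTGGCGCTG in 12 of 14 PCDHB windows and GCGCCGCTGT in 8 of 19 PCDHG windows. The PCDHA word tied with others that overlap it, and of tied words the last in alphabetical order was kept. Searched on both strands of all 27305 genes with a window, the 3 words were held by 0.0440%, 0.341% and 0.165% of genes. All 3 words hold the letters CGCT, the known core of the conserved element of clustered protocadherin promoters, but CGCT alone is in 71.9% of all windows when both strands are read. Each stretch ends before the annotated start, and capitals mark the word.

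PCDHA members, with PCDHA12 called higher and the other 3 too low to test, are given first.
PCDHA12 (chr5:140875229-140875288, plus strand): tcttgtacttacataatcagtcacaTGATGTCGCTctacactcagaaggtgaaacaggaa
PCDHA1 (chr5:140786071-140786130, plus strand): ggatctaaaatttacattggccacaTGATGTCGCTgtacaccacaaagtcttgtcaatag
PCDHA2 (chr5:140794766-140794825, plus strand): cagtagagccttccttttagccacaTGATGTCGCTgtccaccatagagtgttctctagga
PCDHA4 (chr5:140806964-140807023, plus strand): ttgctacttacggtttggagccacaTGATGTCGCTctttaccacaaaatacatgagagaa
PCDHB9 and PCDHB13 were called higher and PCDHB15 lower.
PCDHB9 (chr5:141187060-141187119, plus strand): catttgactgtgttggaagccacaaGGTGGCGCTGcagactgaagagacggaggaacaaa
PCDHB13 (chr5:141213851-141213910, plus strand): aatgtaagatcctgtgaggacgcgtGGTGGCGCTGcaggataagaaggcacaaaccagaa
PCDHB15 (chr5:141245300-141245359, plus strand): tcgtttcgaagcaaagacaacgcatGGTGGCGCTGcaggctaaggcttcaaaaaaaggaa
PCDHGA1 was called higher and PCDHGA7 lower.
PCDHGA1 (chr5:141330390-141330449, plus strand): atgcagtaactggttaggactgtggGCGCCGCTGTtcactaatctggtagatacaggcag
PCDHGA7 (chr5:141382636-141382695, plus strand): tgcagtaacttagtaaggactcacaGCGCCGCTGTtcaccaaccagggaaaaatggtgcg

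The PCDHA word was in 1 member that rose, PCDHA12, and otherwise in members too low to test. The PCDHB and PCDHG words were in members called higher, called lower and not called, the last including PCDHB3, PCDHB4, PCDHB5, PCDHGA9, PCDHGA10, PCDHGB4 and PCDHGB6. PCDHA11, PCDHAC1 and PCDHAC2, which rose, did not hold the PCDHA word in their windows, and PCDHA3, PCDHA13 and PCDHA14 had none to search.

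The PCDHA cluster was nearly silent under the parental label and had counts in most of its rows under the KO label. Its 16 rows summed to 26, 10 and 21 counts in parental-labelled libraries and 460, 380 and 444 counts in KO-labelled ones. In CPM the sums were 0.858, 0.397 and 0.675 against 17.3, 13.4 and 15.9. All 16 rows had more counts per library size under the KO label, and 9 of them had 0 counts in every parental-labelled library. In single libraries 5 or 6 of the 16 rows had a count under the parental label and 14 to 16 under the KO label. Fitted as 1 summed row, which was chosen after seeing the data because members share exons, the cluster had a log2 fold change of 4.55 (SE 0.22, edgeR adjusted p = 6.3e-06).

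Of the PCDHA genes 5 were tested and all 5 rose, beside 21% called higher over all tested genes. Of the 5, 4 passed the filter only through the KO-labelled libraries, so those had to differ in counts. PCDHA11 also needed the KO-labelled libraries to pass, so the count is a description. PCDHA11 was at 0.363, 0.119 and 0.161 CPM against 6.37, 3.54 and 5.53 CPM, and the log2 fold change was 4.52 (SE 0.40, edgeR adjusted p = 1.0e-04), and 5.13 without parental-labelled 1. PCDHA3 was at 0.330, 0.0795 and 0.321 CPM against 3.73, 3.61 and 3.25 CPM, with 3.77 (SE 0.29, edgeR adjusted p = 6.1e-05). No parental-labelled library came near a KO-labelled one for either gene. PCDHA12 was at 0.0330, 0.0795 and 0.0321 CPM against 1.09, 0.672 and 1.39 CPM, with 4.38 (SE 0.51, edgeR adjusted p = 1.8e-04). PCDHAC1, a C-type member with a promoter at the end of the array, was at 0.0660, 0.0795 and 0 CPM against 2.86, 2.09 and 3.03 CPM, with 5.72 (SE 0.45, edgeR adjusted p = 2.5e-05), and 5.11 without parental-labelled 3. The second C-type member, PCDHAC2, had 0 counts in all parental-labelled libraries and 30, 25 and 30 in KO-labelled ones, at least 29.6-fold higher with a floor of 3 counts over the group.

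Use of the PCDHA array was uneven and was led by PCDHA11 and PCDHA3 in each KO-labelled library, with the order of the 2 exchanged in KO-labelled 2. PCDHA11 held 36.7%, 26.3% and 34.9% of the cluster's counts in KO-labelled 1, 2 and 3, and PCDHA3 held 21.5%, 26.8% and 20.5%. PCDHAC1 held 16.5%, 15.5% and 19.1%. PCDHA11, PCDHA3, PCDHAC1 and PCDHA12 together had 79.7% of the KO-labelled counts, while PCDHA4, PCDHA6, PCDHA7, PCDHA8 and PCDHA10 had under 1% each. Among members too low to test, PCDHA13 had 1 count against 29, a ratio of 30.3 (95% counting interval 5.03 to 1238), and PCDHA2 had 2 counts against 40, a ratio of 20.9 (95% counting interval 5.42 to 179). The 20 nearest tested genes outside the clusters had a median log2 fold change of 0.08, with 3 called higher and 4 lower. Neural markers fixed for these libraries stood beside this as follows, and their part in it was not tested: NCAM1 went from 10.3 ± 0.388 to 26.4 ± 2.27 CPM, MAP2 was 10.4 CPM in both group means, and GFAP was at 0.129 ± 0.0542 and 0.108 ± 0.0609 CPM (SD, n = 3 each).

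**Figure D4:**
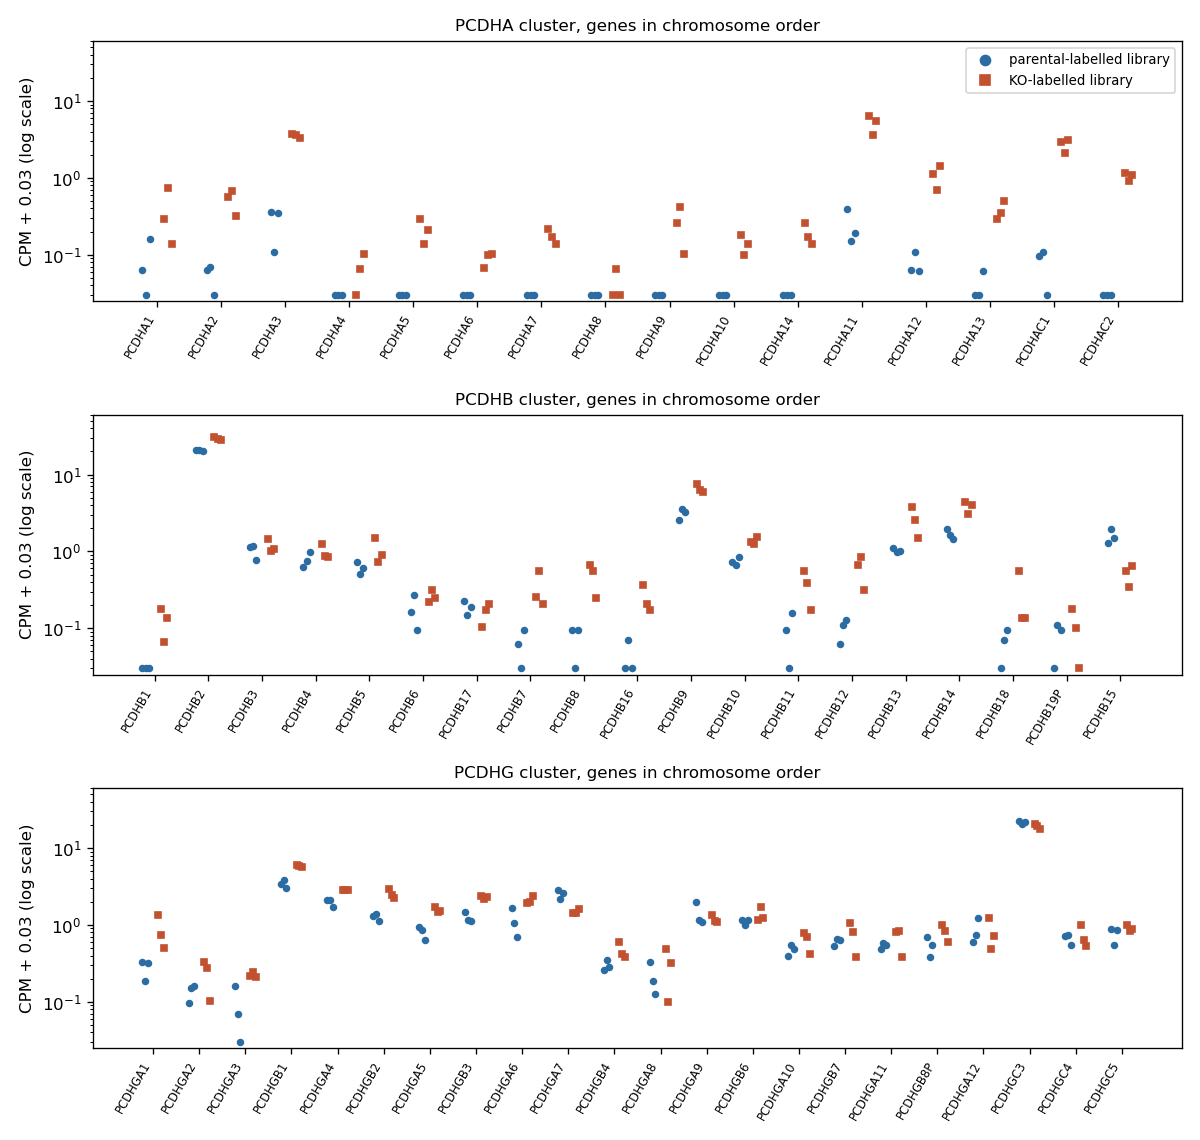
CPM plus 0.03 per library (y axis, log scale) of each protocadherin gene in chromosome order (x axis) in the PCDHA, PCDHB and PCDHG clusters, with parental-labelled libraries as circles and KO-labelled ones as squares. PCDHA genes sit at or near 0 under the parental label and higher in the mean under the KO label, whereas most PCDHB and PCDHG genes were detected in both groups, and PCDHB15 and PCDHGA7 are lower under the KO label.

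The neighbouring PCDHB cluster was active under both labels and moved less. Its 19 rows summed to 31.3, 32.1 and 30.9 CPM against 56.1, 47.9 and 45.7 CPM, and the summed row had a log2 fold change of 0.66 (SE 0.09, edgeR adjusted p = 9.2e-04). PCDHB2, named after its values were seen, held most of the cluster's level in both groups, at 20.5 ± 0.497 against 29.4 ± 1.52 CPM (SD, n = 3 each). Of 9 tested genes 5 rose, 1 fell and 3 were not called, beside 40.8% called over all tested genes. PCDHB9 rose from 2.51, 3.54 and 3.21 CPM to 7.61, 6.26 and 5.82 CPM, with 1.09 (SE 0.18, edgeR adjusted p = 0.00189), and PCDHB14 from 1.91, 1.59 and 1.41 CPM to 4.33, 3.01 and 3.93 CPM, with 1.19 (SE 0.21, edgeR adjusted p = 0.00261). PCDHB13 rose from 1.09, 0.954 and 0.997 CPM to 3.73, 2.55 and 1.46 CPM, with 1.33 (SE 0.35, edgeR adjusted p = 0.0172), a call lost without any parental-labelled library (0.0522 to 0.0654). PCDHB15, at the far end of the array, went the other way, from 1.25, 1.95 and 1.48 CPM to 0.528, 0.318 and 0.607 CPM, with -1.67 (SE 0.30, edgeR adjusted p = 0.00315).

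In the PCDHG cluster 7 of 19 tested genes rose, 1 fell and 11 were not called, beside 40.8% called over all tested genes. The 22 rows summed to 44.5, 39.9 and 40.1 CPM against 51.3, 46.7 and 43.6 CPM, and the summed row was not called (0.18, SE 0.09, edgeR adjusted p = 0.137), although it was without KO-labelled 3 (0.24, 0.0273). PCDHGB2 rose from 1.29, 1.35 and 1.09 CPM to 2.90, 2.404 and 2.18 CPM, with 1.01 (SE 0.19, edgeR adjusted p = 0.00446). PCDHGA1, which passed only through the KO-labelled libraries, rose from 0.297, 0.159 and 0.289 CPM to 1.32, 0.707 and 0.464 CPM, with 1.68 (SE 0.48, edgeR adjusted p = 0.0249), a call lost without KO-labelled 1 or any parental-labelled library (0.0512 to 0.0859). PCDHGA7, named after its values were seen as the only PCDHG gene called lower, fell from 2.80, 2.15 and 2.57 CPM to 1.39, 1.38 and 1.57 CPM, with -0.80 (SE 0.18, edgeR adjusted p = 0.00931). PCDHGC3, a C-type member, had the highest level in the cluster, at 21.7 ± 1.03 against 19.2 ± 1.22 CPM (SD, n = 3 each), and was not called. Because PCDHA and PCDHG genes share constant exons and PCDHB genes resemble each other, the split of reads among members is uncertain. For PCDHGB4 the group means of the 2 deposited measures went opposite ways, with 0.269 against 0.437 CPM and 0.287 against 0.118 FPKM. The same held for PCDHGB7 and PCDHGC4, which were not called, and for PCDHGA2, PCDHGA3 and PCDHGA8, which were too low to test.

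The KO-labelled libraries differed from each other more than the parental-labelled ones did, and members at higher levels shared in this. Over the 23 members with a mean of at least 10 CPM, log2 CPM had a median SD of 0.07 under the parental label and 0.14 under the KO label, and 21 of 23 were wider in the latter, beside 81.9% of all 10238 genes at that level. Over all 63 tested members the median SD was 0.18 and 0.21. Of these, 43 (68.3%) were wider under the KO label, beside 76.3% of all tested genes. The groups did not overlap for 44 of the 63 tested members, beside 54.4% of all tested genes. The 44 include the 8 members that passed the filter only through KO-labelled and the 2 only through parental-labelled libraries. For these the filter left little room for overlap, so the count is a description. KO-labelled 3 stood apart in DSC3, PVRL1, PVRL4 and PCDH7, and in the counts of DSG3 and PCDH19. With that library left out, 31 members were higher and 14 lower of 67 tested, beside 52.6% of all 17803 genes then tested.

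Genes linked to these junctions were then counted from lists that hold no member, to be read beside 21% called higher and 19.8% called lower over all tested genes (40.8% in all). At these list sizes the counts are a description. Of 25 tested adherens junction partners 1 rose and 8 fell, with a median log2 fold change of -0.07. Vinculin (VCL), which binds alpha-catenin under tension, was at -0.83 (SE 0.06), the metalloprotease ADAM15 at -1.09 (SE 0.08), ezrin (EZR) at -0.89 (SE 0.07) and the small GTPase RAC1 at 0.25 (SE 0.06). Of 12 tested genes of the wider cadherin superfamily 5 rose and 3 fell, with a median of 0.35. FAT2, a giant cadherin, went from 2.44 ± 0.356 to 43.5 ± 16.7 CPM (SD, n = 3 each, log2 fold change 4.14, SE 0.34), DCHS1 was at 1.65 (SE 0.21) and CDHR3 had 2 counts against 66, a ratio of 34.5 (95% counting interval 9.18 to 291). In the same family CLSTN2 was at -3.23 (SE 0.23), CELSR1 at -0.52 (SE 0.08) and FAT1 at -0.35 (SE 0.09).

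Among 14 tested keratins and other desmosome partners 6 rose and 2 fell, with a median of 0.34. KRT15, KRT16 and KRT14, of basal or stratified epithelium, were at 1.43 (SE 0.10), 2.28 (SE 0.24) and 1.90 (SE 0.24), and the simple-epithelium keratins KRT7 and KRT18 at -0.33 (SE 0.09) and -0.46 (SE 0.14). The list's other keratins, named after their values were seen, did not all follow. KRT5 (0.51) and KRT6B (3.09) of stratified epithelium were called higher, but KRT6A (-0.10) and KRT17 (0.04), as well as KRT8 (-0.37) and KRT19 (-0.01) of simple epithelium, were not called. Of 14 tested regulators of cadherin transcription 4 rose and 3 fell, with a median of -0.00. TCF3, which can repress CDH1, was at 1.01 (SE 0.09), KLF4 at 0.78 (SE 0.20) and OVOL1 at 0.81 (SE 0.23). ELF3, ESRP2 and FOXA1 were at -0.48 (SE 0.07), -0.40 (SE 0.06) and -0.52 (SE 0.13). Also of this list, and named after their values were seen, GRHL1, GRHL2, GRHL3, OVOL2, ESRP1 and GATA3 were not called. Of 2 further CDH1 repressors, named after their values were seen, SNAI1 was at 1.56 ± 0.397 against 3.48 ± 1.61 CPM (SD, n = 3 each), with overlapping groups and a log2 fold change of 1.15 (SE 0.37, edgeR adjusted p = 0.0382). ZEB1 was at 0.431 ± 0.270 and 0.471 ± 0.128 CPM (SD, n = 3 each) and not called. Of this list's genes too low to test, TWIST2 had 4, 5 and 5 counts against 9, 24 and 35. TWIST1 and TCF4 had at most 2 counts in any library.

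Of 9 tested beta-catenin targets 0 rose and 4 fell, with a median of -0.23, among them CCND1 at -1.27 (SE 0.14), RNF43 at -0.49 (SE 0.09) and NKD1 at -0.64 (SE 0.12). Of the 9 tested EPCAM partners 1 rose and 6 fell, with a median of -0.51. The protease ADAM17, which sheds EPCAM, was at 0.50 (SE 0.06). The matriptase inhibitor SPINT2 was at -0.68 (SE 0.07), the gamma-secretase subunit PSEN2 at -0.65 (SE 0.10) and claudin-7 (CLDN7), which binds EPCAM, at -0.43 (SE 0.07). Named genes of these lists that rose or fell had edgeR adjusted p from 3.5e-05 (KRT15) to 0.0382 (SNAI1).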

How the data were processed

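RNA was sequenced from 3 parental-labelled and 3 KO-labelled cultures of MDA-MB-468. Per the labels' protocols, libraries were made with a poly(A) module and a directional kit. The authors deposited raw counts per gene symbol and FPKM values, which are scaled to library size and transcript length. Tools listed in the submitters' processing notes, without roles, are Cufflinks 2.0.2, SAMtools 0.1.19 and STAR 2.4.0f1, and the build listed is hg19. How reads were counted, with which strand setting and annotation, is not given in the sources used here, so overlapping and antisense genes and near-identical copies may be miscounted.

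From the counts, genes were kept with filterByExpr (minimum count 10, minimum total 15), normalised by TMM and tested in edgeR 4.0.16 (R 4.3.3) by the quasi-likelihood F test without covariates. P-values were adjusted by the Benjamini-Hochberg method over 17420 genes, with a threshold of 0.05. An SE is the log2 fold change divided by the square root of F. CPM use TMM library sizes. The steps were tested on simulated counts. Ratios against 1 to 3 counts carry exact 95% binomial intervals, which like the floor of 3 counts cover counting error only. Library pairs gave a chi-square per gene of at least 3.08, so none was treated as a repeat.

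Alternatives were other normalisations and filters, DESeq2 1.42.0, limma 3.58.1 (voom, and log2(FPKM + 1) and log2(FPKM + 0.1)), a robust legacy fit, a 1.5-fold threshold and leaving out each library. Gene order came from RefSeq (GRCh38.p14), a later build than hg19, for 84.8% of tested genes, and gives neighbours (10 tested genes on each side) only, while promoter coordinates are those of that table.

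Members, lists and the naming rule were chosen with earlier results of these data known. The rule names the type I classical cadherins, catenins, desmosomal genes, nectins and EPCAM that were tested. It also names other CDH and PCDH genes called with an absolute log2 fold change of at least 1, and up to 3 called genes per direction of each list.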

Additional observations from a re-analysis of the deposited data

How the results depend on the processing

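Depth limits the low members: 1 count is 0.0316 to 0.0390 CPM, and 40 of 103 members could not be tested. No paired analysis was possible because the labels give the 2 groups no shared replicate number or origin. Of 41 named members under 17 other fits, the direction turned only for genes that were not called: CTNNB1 (-0.0147) and JUP (-0.0111) without KO-labelled 3, and PKP3 without KO-labelled 1 (0.0339) or parental-labelled 3 (0.0635). With each library left out in turn, CTNNB1 ranged from -0.0147 to 0.1541, JUP from -0.0111 to 0.1175 and PKP3 from -0.1561 to 0.0635. The 27 higher and 10 lower members became 7 and 5 when at least 10 CPM in 3 libraries was required, which left 23 members to test, and 11 and 4 with glmTreat and a minimum of 1.5-fold, where 1922 genes were called in all. Leaving out each library gave 23 to 31 members higher, 8 to 14 lower and 4879 to 9367 genes called in all. Summing the protocadherin clusters, added after seeing the data, gave PCDHA at 4.33 to 4.81, PCDHB at 0.57 to 0.72 and PCDHG at 0.12 to 0.24 with a library left out.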
